A study of Oryzias latipes with 6 samples.

Results

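Hearts of [KO + XBP1(S)] medaka, which lack AXER and carry 1 active XBP1 allele, were compared with hearts of WT medaka at 5 dpf to see which changes of AXER-null hearts remained and which appeared with active XBP1. The comparison rests on 12 of the 36 sequenced libraries, 6 of [KO + XBP1(S)] medaka (AXER-/-, XBP1(S/+)) and 6 of WT medaka (AXER+/+). The other genotypes, with 6 libraries each, were AXER-KO (AXER-/-), [KO + ATF6(N)] (AXER-/-, ATF6(N/+)), [WT + XBP1(S)] (AXER+/+, XBP1(S/+)) and [WT + ATF6(N)] (AXER+/+, ATF6(N/+)), and they served to place each change. The AXER-KO allele is a small TALEN-made deletion that shifts the reading frame, taken from a single line, and it is present in all cells. XBP1(S) is made constitutively from an XBP1 locus without its intron, so it is not restricted to the heart. Each deposited file holds the libraries of 1 genotype, and whether they came from separate hearts or clutches is not given in the sources used here, so the p-values describe variation from library to library, part or all of which may be technical.

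AXER carries ATP into the endoplasmic reticulum (ER), where chaperones use it to fold secretory and membrane proteins. When unfolded proteins accumulate, the sensor IRE1 removes an intron from XBP1 mRNA, and the resulting XBP1(S) is a transcription factor for genes of ER folding, secretion and ER-associated degradation. ATF6 is cut in the Golgi apparatus and its nuclear fragment, ATF6(N), is the other main activator of ER chaperone genes in vertebrates.

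Values are estimated read counts for each of 37495 Ensembl medaka transcripts, of which 18076 had enough reads to be tested. None of the identifiers was paired with a gene name here, so AXER, XBP1, chaperone genes and the markers of cardiomyocytes and blood cells were not analysed, and transcripts are described by their levels alone. Because the whole heart was sequenced, fewer cells of a type and less RNA per cell cannot be told apart. Depth was 1850805 to 4728592 estimated reads per library in [KO + XBP1(S)] medaka (median 2477696) and 2524357 to 11139745 in WT medaka (median 4013868). Of the [KO + XBP1(S)] libraries, replicates 5 and 2 were the least like the others. Their log2 levels correlated with the mean of the genotype's other libraries at r = 0.906 and 0.918, against 0.928 to 0.947 for the other 4 and 0.95 to 0.977 in WT medaka. In other genotypes the lowest values were 0.924 in [WT + ATF6(N)] and 0.929 in [WT + XBP1(S)] libraries, so replicate 2 was not far below these. The counts and transcripts that changed most without replicates 5 and 2 are also given without both. Leaving both out also lowers the number of [KO + XBP1(S)] libraries to 4, and the effect of that alone was not tested.

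In [KO + XBP1(S)] hearts, 147 transcripts passed as higher and 62 as lower relative to WT hearts, which is 0.813% and 0.343% of the transcripts tested (edgeR's quasi-likelihood test, Benjamini-Hochberg adjusted p under 0.05 and a change above 1.5-fold). The median log2 fold change was 1.21 among the raised transcripts and -0.97 among the fallen ones, and -0.01 over all transcripts tested. More than 2-fold changes were seen for 109 raised and 29 fallen transcripts, and more than 4-fold changes for 19 and 10. Together, the raised transcripts took 2.16 ± 0.14% of all reads in [KO + XBP1(S)] hearts and 0.82 ± 0.03% in WT hearts (SD, n = 6). The fallen transcripts took 0.23 ± 0.03% in [KO + XBP1(S)] hearts and 0.40 ± 0.04% in WT hearts (SD, n = 6). Among called transcripts, the raised ones were therefore the larger group in number and in share of reads. At an unadjusted p under 0.05 this was not so, with 942 transcripts higher and 1053 lower.

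The libraries of the 2 genotypes did not overlap for 114 of the 147 raised transcripts and for 29 of the 62 fallen ones, against 0.797% and 0.537% of all transcripts tested in these directions. In single [KO + XBP1(S)] libraries, 133 to 143 of the raised transcripts lay above every WT library and 48 to 59 of the fallen ones lay below every WT library. The share of all transcripts past the WT range in a single library was not computed. These counts therefore serve only to compare the [KO + XBP1(S)] libraries with each other. The same libraries chose these transcripts, which favours both the lack of overlap and levels past the WT range. Replicate 5 had the most raised transcripts above WT and replicate 2 the fewest. Without replicates 5 and 2, 115 of the 147 raised transcripts were still called, but only 16 of the 62 fallen ones, although all 209 kept their direction. The median log2 fold changes were then 1.20 and -0.87. The median level of the fallen transcripts was 12.2 CPM (counts scaled to a common library size) in [KO + XBP1(S)] hearts and 24.0 CPM in WT hearts, and that of the raised transcripts was 50.8 CPM in [KO + XBP1(S)] and 21.7 CPM in WT hearts.

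**Figure D1:**
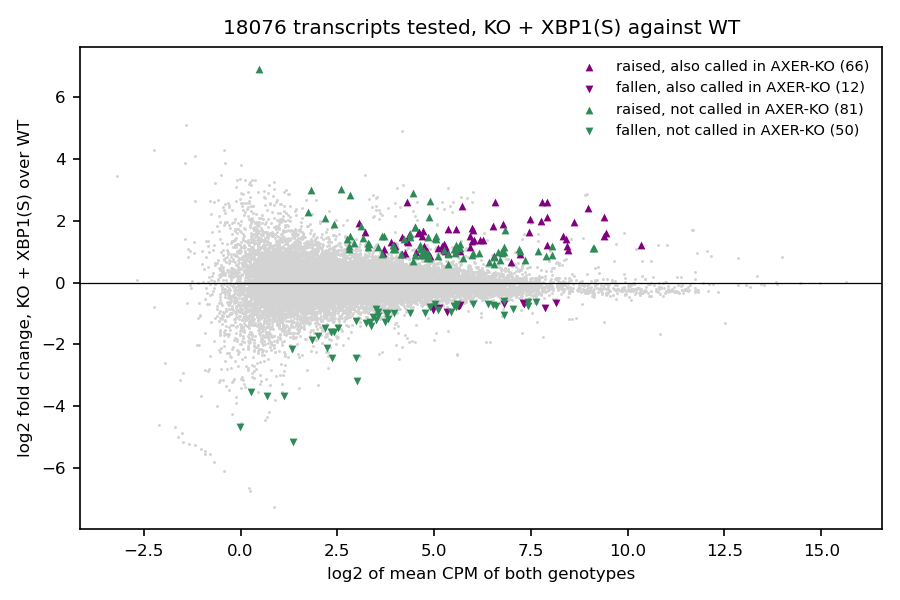
Log2 fold change of [KO + XBP1(S)] over WT for each of the 18076 transcripts tested, against the log2 of their mean CPM in both genotypes. Triangles mark the 147 raised and 62 fallen transcripts, coloured by whether they were also called in AXER-KO hearts, and the fallen ones not called in AXER-KO hearts reach to low levels. The topmost triangle had no read in any WT library, so its height depends on the prior count.

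The single highest fitted value belonged to a transcript with 44 counts in 4 of the 6 [KO + XBP1(S)] libraries and none in WT libraries. Set against 3 counts over the WT genotype, it was 28.3-fold higher in [KO + XBP1(S)] hearts. This value leaves out the error of the 44 counts and the spread between libraries, so it is not a lower limit. It had 36 counts in AXER-KO and 16 in [WT + XBP1(S)] libraries, so it was not restricted to the combined genotype. With this transcript at its bound, the median of the raised transcripts was again 1.21.

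AXER-KO hearts had 79 raised and 37 fallen transcripts against the same WT libraries (0.437% and 0.205% of those tested). In [KO + XBP1(S)] hearts, 66 of the 79 raised transcripts were still raised and 12 of the 37 fallen ones were still fallen. Both comparisons share the WT libraries, so these counts are a description. Most rises of the null heart thus remained in the presence of active XBP1, whereas most falls were no longer called.

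The 66 raised transcripts that remained had a median log2 fold change against WT of 1.39 in [KO + XBP1(S)] hearts and 0.94 in AXER-KO hearts. They averaged a log2 CPM of 6.51 ± 0.04 in [KO + XBP1(S)] hearts, 6.20 ± 0.10 in AXER-KO hearts and 5.02 ± 0.08 in WT hearts (SD, n = 6). Being called in [KO + XBP1(S)] hearts was a condition for the 66, which favours higher levels there. They were therefore also set against AXER-KO hearts together with the 13 that were not called. All 79 rises of AXER-KO hearts averaged a log2 CPM of 6.21 ± 0.04 in [KO + XBP1(S)], 6.10 ± 0.09 in AXER-KO and 4.86 ± 0.08 in WT hearts (SD, n = 6). The [KO + XBP1(S)] libraries (6.16 to 6.25) overlapped the AXER-KO libraries (5.98 to 6.24), and both lay above the WT libraries (4.73 to 4.94). Compared directly, 12 of the 79 were higher and 1 was lower in [KO + XBP1(S)] than in AXER-KO hearts, where 0.138% and 0.0387% of all transcripts were called. At an unadjusted p under 0.05, 32 of the 79 were higher and 15 were lower (3.53% and 4.23% of all transcripts), with a median log2 difference of 0.25. The AXER-KO libraries that enter this comparison also chose the 79. Without replicates 5 and 2, 10 of the 79 were higher than in AXER-KO hearts, and 62 of the 66 were called against WT.

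These 66 were split into 2 groups by whether they were called in [WT + XBP1(S)] hearts, where 103 transcripts were higher than in WT hearts (0.57%). The larger group, 44 transcripts, was also raised in [WT + XBP1(S)] hearts, and 12 of these were higher in [KO + XBP1(S)] than in AXER-KO hearts (0.138% of all transcripts). The median log2 difference between these genotypes was 0.47 over all 44, a direction that their choice favours. The other 22 were not called in [WT + XBP1(S)] hearts. Even so, 20 of these 22 were higher there than in the shared WT libraries, with a median log2 fold change of 0.395. At an unadjusted p under 0.05, 13 of the 22 were higher, against 799 of all 18076 transcripts. Their median log2 fold change against WT was 1.10 in [KO + XBP1(S)] and 1.25 in AXER-KO hearts. None of the 22 was called between these genotypes by edgeR's test, DESeq2 or limma-voom. At an unadjusted p under 0.05, 3 were higher and 3 were lower (3.53% and 4.23% of all transcripts). Of these 22, 9 were higher in [KO + XBP1(S)] than in [WT + XBP1(S)] hearts (0.116% of all transcripts), a direction that their choice favours.

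Among the raised transcripts that remained, the leading one was at 277 to 464 CPM (median 393) in [KO + XBP1(S)] libraries and at 49.0 to 69.2 CPM (median 63.9) in WT libraries. AXER-KO libraries were at 304 to 386 CPM and [WT + XBP1(S)] libraries at 98.5 to 146 CPM. All null libraries were thus above all WT libraries, with the rise of [WT + XBP1(S)] hearts in between. The log2 fold change was 2.62 (standard error 0.13, adjusted p = 1.89e-18 from edgeR) against WT and 0.19 (standard error 0.12, adjusted p = 0.768) against AXER-KO, with a 95% interval of -0.06 to 0.43 for the difference. The second was at 12.6 to 56.5 CPM (median 30.7) in [KO + XBP1(S)] and 2.47 to 10.3 CPM (median 5.25) in WT libraries, a log2 fold change of 2.62 (standard error 0.30). The third was at 124 to 224 CPM (median 153) in [KO + XBP1(S)] and 17.7 to 32.0 CPM (median 28.4) in WT libraries, a log2 fold change of 2.61 (standard error 0.16). All 3 were also called in AXER-KO and in [WT + XBP1(S)] hearts. The log2 CPM of the first and the third correlated at r = 0.967 over all 36 libraries.

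The 12 fallen transcripts that remained had a median log2 fold change of -0.76 in [KO + XBP1(S)] hearts and -0.99 in AXER-KO hearts. Their mean log2 CPM was 5.77 ± 0.22 in [KO + XBP1(S)], 5.56 ± 0.15 in AXER-KO and 6.55 ± 0.09 in WT hearts (SD, n = 6), so that the 2 null genotypes overlapped and both lay below WT. Of the 12, 2 were higher in [KO + XBP1(S)] than in AXER-KO hearts (0.138% of all transcripts). The leading one was at 19.3 to 43.1 CPM (median 25.3) in [KO + XBP1(S)] libraries and 46.9 to 69.1 CPM (median 49.0) in WT libraries. Its log2 fold change was -0.94 (standard error 0.19, adjusted p = 0.00242 from edgeR) in [KO + XBP1(S)] hearts and -0.94 (standard error 0.19) in AXER-KO hearts, and its log2 difference between the 2 null genotypes had a 95% interval of -0.38 to 0.39. The second was at 143 to 187 CPM (median 170) in [KO + XBP1(S)] and 239 to 333 CPM (median 313) in WT libraries, a log2 fold change of -0.81 (standard error 0.14). The third was at 16.7 to 29.3 CPM (median 22.4) in [KO + XBP1(S)] and 35.8 to 45.4 CPM (median 38.0) in WT libraries, a log2 fold change of -0.80 (standard error 0.18). Only 3 of the 12 were called without replicates 5 and 2, the second among them, while the adjusted p of the leading one was 0.0741 and that of the third 0.134 (edgeR).

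**Figure D2:**
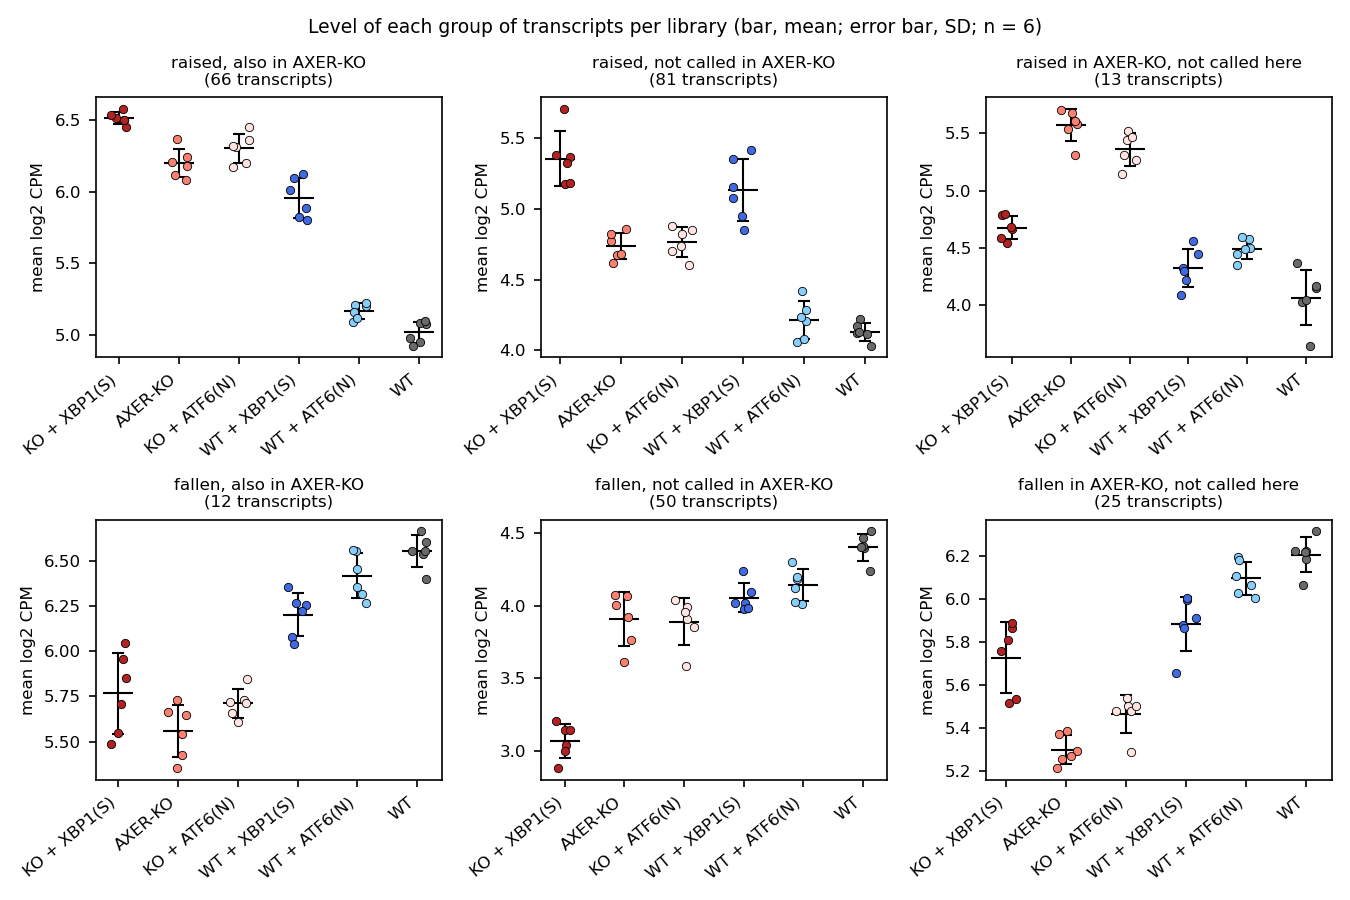
Mean log2 CPM of 6 groups of transcripts in every library of the 6 genotypes (points, libraries; bars, mean; error bars, SD; n = 6). The groups were formed from calls in [KO + XBP1(S)] and AXER-KO hearts, so the place of these genotypes relative to each other and to WT follows in part from that choice. In the group of 66 transcripts at the upper left, [KO + XBP1(S)] libraries lie at 6.45 to 6.58 and WT libraries at 4.92 to 5.10.

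Of the changes of AXER-KO hearts, 38 were not called in [KO + XBP1(S)] hearts, 13 of the 79 rises and 25 of the 37 falls. The number was 52 without replicates 5 and 2, and 58 with limma-voom and 74 with DESeq2, where all groups were formed anew. All 38 kept the direction they had in AXER-KO hearts, measured against the same WT libraries. The median log2 fold change against WT of the 13 was 0.43 in [KO + XBP1(S)] and 0.86 in AXER-KO hearts, and that of the 25 was -0.53 in [KO + XBP1(S)] and -0.82 in AXER-KO hearts. The 95% interval lay within 1.5-fold of WT for 4 of the 13 and 4 of the 25, and it excluded no change for 7 and 17 of them. Set directly against AXER-KO hearts, 1 of the 13 was lower and 1 of the 25 was higher in [KO + XBP1(S)] hearts (0.0387% and 0.138% of all transcripts). At an unadjusted p under 0.05, 12 and 14 lay in these directions (4.23% and 3.53% of all transcripts), which the lost call favours. Neither of the called ones was called without replicates 5 and 2. Over all 37 falls of AXER-KO hearts, 3 were higher in [KO + XBP1(S)] than in AXER-KO hearts (0.138% of all transcripts). At an unadjusted p under 0.05, 18 were higher (3.53%). Loss of the call was therefore not shown to be a return to WT for most of them.

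The leading transcripts among these were taken by their log2 fold change in AXER-KO hearts, from those averaging 5 CPM or more in AXER-KO or WT hearts without overlap of their libraries. Of the leading falls, the one called higher against AXER-KO was at 91.4 to 131.2 CPM (median 124) in [KO + XBP1(S)] libraries, 56.0 to 79.7 CPM (median 63.8) in AXER-KO libraries and 107.4 to 169 CPM (median 144) in WT libraries. Its [KO + XBP1(S)] libraries lay above all AXER-KO libraries and overlapped the WT libraries. Its log2 fold change was 0.88 (standard error 0.17, adjusted p = 0.00751 from edgeR) against AXER-KO and -0.27 (95% interval -0.61 to 0.07) against WT, and it was also low in [KO + ATF6(N)] hearts, at 33.4 to 70.8 CPM. The largest of these falls was at 23.7 to 47.5 CPM (median 35.3) in [KO + XBP1(S)], 14.6 to 32.0 CPM (median 21.6) in AXER-KO and 39.4 to 77.0 CPM (median 53.1) in WT libraries, with a log2 fold change against WT of -0.61 (95% interval -0.98 to -0.24). The next was at 8.36 to 16.9 CPM (median 11.8) in [KO + XBP1(S)], 5.74 to 12.3 CPM in AXER-KO and 19.3 to 25.01 CPM (median 21.5) in WT libraries. All its [KO + XBP1(S)] libraries were still below the WT libraries, but the same WT libraries had helped to choose it. Its log2 fold change against WT was -0.85 (adjusted p = 0.194 from edgeR), so neither a lasting fall nor a return to the WT level was shown.

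By the same limits, the leading rise of AXER-KO hearts that was no longer called was at 0.66 to 18.4 CPM (median 7.63) in [KO + XBP1(S)], 14.9 to 24.1 CPM (median 22.7) in AXER-KO and 0 to 10.1 CPM (median 1.82) in WT libraries. Its [KO + XBP1(S)] libraries overlapped both, and its log2 fold change against WT was 1.20 (95% interval 0.13 to 2.28). The next rises were at 1.31 to 14.3 CPM (median 5.87) and 3.96 to 42.7 CPM (median 22.2) in [KO + XBP1(S)] libraries, against 0 to 4.19 CPM (median 2.42) and 1.30 to 38.0 CPM (median 7.18) in WT libraries, and neither passed edgeR's test against AXER-KO or WT.

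Changes called in [KO + XBP1(S)] but not in AXER-KO hearts numbered 81 rises and 50 falls. Set directly against AXER-KO hearts, 8 of the 81 were higher and 3 of the 50 were lower in [KO + XBP1(S)] hearts (0.138% and 0.0387% of all transcripts). Without replicates 5 and 2 these were 4 and 1. At an unadjusted p under 0.05, 61 and 29 lay in these directions (3.53% and 4.23% of all transcripts), which the choice of the transcripts favours. The 11 called ones depended on single libraries and on the test. With the groups formed anew, they were 6 and 5 without AXER-KO replicates 1 and 4, 7 without [KO + XBP1(S)] replicate 3, 7 without replicate 5, 33 with DESeq2 and 1 with the test against 1.5-fold. The 81 had a median log2 fold change against WT of 1.10 in [KO + XBP1(S)] and 0.51 in AXER-KO hearts, and the 50 had -1.06 in [KO + XBP1(S)] and -0.52 in AXER-KO hearts, but both values share the WT libraries that chose the transcripts. Between [KO + ATF6(N)] and [WT + ATF6(N)] hearts, which share no library with that choice, 48 of the 81 were higher at an unadjusted p under 0.05 (3.49% of all transcripts) and 7 of the 50 were lower (3.13%).

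Of the 81 rises that appeared, 43 were also raised in [WT + XBP1(S)] hearts. These 43 had nearly the same level with XBP1(S) in either background, with a median log2 difference of 0.03 between [KO + XBP1(S)] and [WT + XBP1(S)] hearts (range -0.48 to 0.28), and none was called between them by edgeR, DESeq2 or limma-voom (2 were lower in [KO + XBP1(S)] hearts at an unadjusted p under 0.05, against 7.46% of all transcripts). Their choice, by calls in both of these genotypes and none in AXER-KO hearts, favours such likeness. Between [KO + ATF6(N)] and [WT + ATF6(N)] hearts, 34 of the 43 were higher at an unadjusted p under 0.05 (3.49% of all transcripts), with a median log2 fold change of 0.546. All 8 transcripts called against AXER-KO hearts belonged to these 43. The other 38 were called in neither AXER-KO nor [WT + XBP1(S)] hearts, and their median log2 fold change against the shared WT libraries was 1.19 in [KO + XBP1(S)], 0.59 in AXER-KO and 0.84 in [WT + XBP1(S)] hearts. In libraries that did not choose them, 14 of the 38 were higher with the loss of AXER ([KO + ATF6(N)] against [WT + ATF6(N)] hearts) at an unadjusted p under 0.05, with a median log2 fold change of 0.44. With XBP1(S) in place of ATF6(N) ([WT + XBP1(S)] against [WT + ATF6(N)] hearts) 23 were higher at that p (5.24% of all transcripts), with a median of 0.65, although the [WT + XBP1(S)] libraries had decided that the 38 were not called there. The mean log2 CPM of the 38 was 4.83 in replicate 5 and 4.09 to 4.37 in the other [KO + XBP1(S)] libraries, and 2.84 to 3.09 in WT libraries. Without replicate 5, 21 of the 38 were called, and without replicates 5 and 2, 15 were.

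Of the 50 falls that appeared, 1 was also fallen in [WT + XBP1(S)] hearts (0.0277% of all transcripts), and 49 were called in neither single genotype. The 50 averaged a log2 CPM of 3.07 ± 0.12 in [KO + XBP1(S)], 3.91 ± 0.19 in AXER-KO, 4.06 ± 0.10 in [WT + XBP1(S)] and 4.40 ± 0.09 in WT hearts (SD, n = 6). By this mean, no [KO + XBP1(S)] library reached the lowest library of another genotype. By share of all reads they did overlap, with 0.109 to 0.1538% in [KO + XBP1(S)] and 0.136 to 0.1655% in AXER-KO libraries. The share was 0.1438 to 0.1762% in [KO + ATF6(N)] and 0.1454 to 0.2004% in [WT + XBP1(S)] libraries. All 50 were below AXER-KO hearts in the direction of their log2 difference, which the choice of transcripts called only in [KO + XBP1(S)] hearts favours. Without replicate 5, 27 of the 50 were called, and without replicates 5 and 2, 13 were.

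Among called transcripts that averaged 5 CPM or more in either genotype, without overlap of libraries, the largest fall was that of ENSORLT00000012576.2, one of the falls that appeared. It was at 0 to 0.44 CPM in [KO + XBP1(S)] libraries, 0.57 to 5.46 CPM (median 3.97) in AXER-KO libraries and 2.11 to 8.39 CPM (median 4.44) in WT libraries. The [WT + XBP1(S)] libraries, at 0 to 6.33 CPM (median 1.985), overlapped those of [KO + XBP1(S)] hearts. Its WT mean of 5.007 CPM only just met the limit. Of the [KO + XBP1(S)] libraries, 4 had no read, and none overlapped a WT library. The fall rests on 2 counts in [KO + XBP1(S)] and 151 counts in WT libraries, a ratio of 0.0255 with a 95% interval of 0.00307 to 0.0939 that covers counting error only. The fitted log2 value of -5.17 against WT (edgeR, standard error 0.81, adjusted p = 3.75e-05) depends on the prior count, and its log2 difference from AXER-KO hearts was -4.71 (adjusted p = 0.00208).

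ENSORLT00000043272.1 was at 0.73 to 2.52 CPM (median 1.54) in [KO + XBP1(S)] libraries and 9.16 to 22.9 CPM (median 12.0) in WT libraries. No library of one overlapped the other, but AXER-KO libraries ranged from 0.83 to 37.0 CPM and [KO + ATF6(N)] libraries from 0.74 to 7.41 CPM. The log2 fold change against WT was -3.19 (standard error 0.62, adjusted p = 0.00152 from edgeR), from 26 counts in [KO + XBP1(S)] and 427 in WT libraries. The third of the falls that appeared was at 0 to 3.36 CPM (median 1.41) in [KO + XBP1(S)] and 3.44 to 13.4 CPM (median 8.81) in WT libraries, a log2 fold change of -2.44 (standard error 0.53), and -1.88 without replicates 5 and 2 (adjusted p = 0.0802 from edgeR).

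Within the same limits, the largest rise was that of ENSORLT00000033549.1, at 4.19 to 30.9 CPM (median 5.96) in [KO + XBP1(S)] libraries and 0 to 2.58 CPM (median 1.14) in WT libraries. Replicate 5 held the highest value and replicate 2 the next, at 13.1 CPM. AXER-KO libraries were at 0.88 to 5.17 CPM and [WT + XBP1(S)] libraries at 3.98 to 8.11 CPM, so the single genotypes overlapped [KO + XBP1(S)] hearts. Its log2 fold change against WT was 3.03, with a standard error of 0.66 and an adjusted p of 0.00567 by edgeR. It was 2.36 and no longer called without replicate 5 (adjusted p = 0.0687), and 1.99 without replicates 5 and 2 (adjusted p = 0.241).

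ENSORLT00000010142.2 was at 3.52 to 10.1 CPM (median 5.34) in [KO + XBP1(S)] libraries and 0 to 1.98 CPM (median 0.35) in WT libraries. The libraries of these 2 genotypes did not overlap, and 3 WT libraries had no read. AXER-KO libraries were at 0.29 to 6.80 CPM, [KO + ATF6(N)] libraries at 2.39 to 7.28 CPM and [WT + XBP1(S)] libraries at 0.27 to 18.6 CPM. All 3 of these genotypes overlapped [KO + XBP1(S)] hearts. The log2 fold change was 2.98 (standard error 0.77, adjusted p = 0.0345 from edgeR), from 99 counts in [KO + XBP1(S)] and 29 in WT libraries, and 3.09 without replicates 5 and 2 (adjusted p = 0.0728). Leaving out 1 library ended the call in 7 of 12 cases (adjusted p 0.0206 to 0.0958). The third of the rises that appeared was at 16.7 to 147 CPM (median 39.8) in [KO + XBP1(S)] and 4.37 to 11.9 CPM (median 7.79) in WT libraries, a log2 fold change of 2.64 (standard error 0.54), and its highest value was again that of replicate 5. Its log2 fold change was 1.95 without replicate 5 (adjusted p = 0.0291 from edgeR), and 1.82 and no longer called without replicates 5 and 2 (adjusted p = 0.0896).

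**Figure D3:**
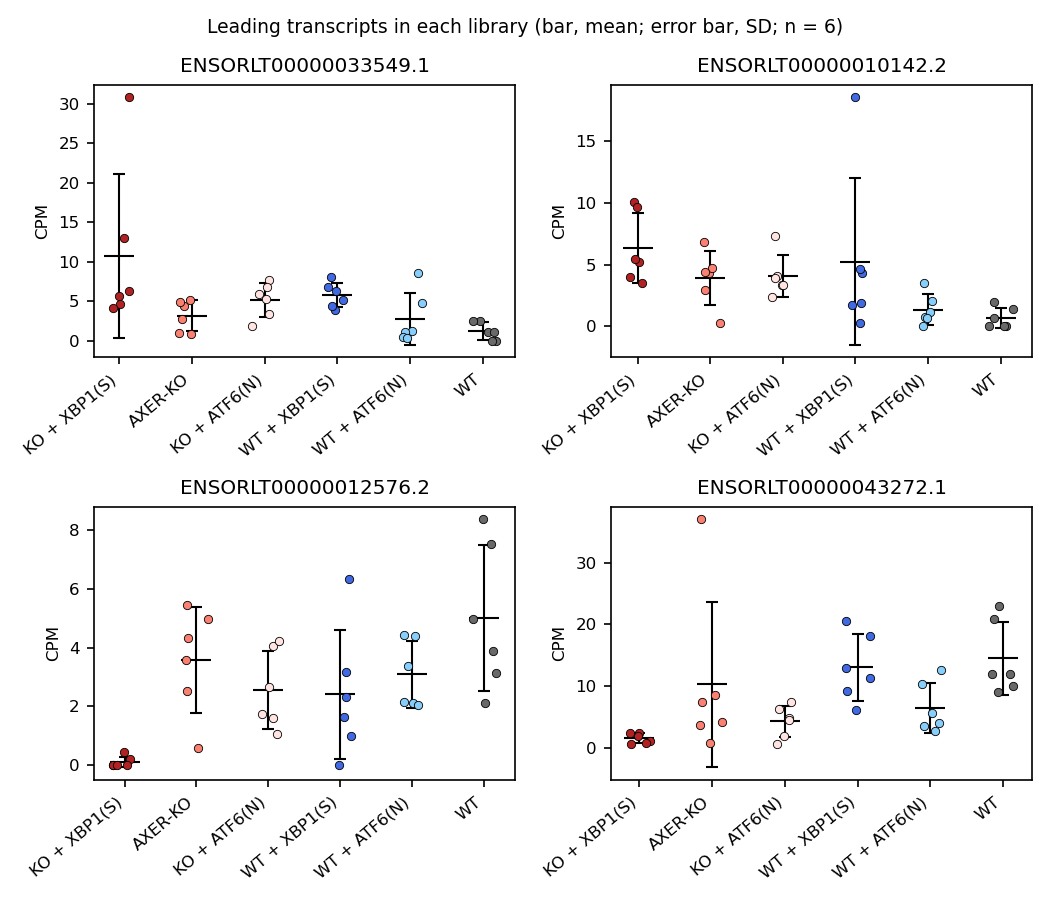
CPM of the 2 transcripts with the largest rises (top) and the 2 with the largest falls (bottom) among those averaging 5 CPM or more without overlap of [KO + XBP1(S)] and WT libraries, in every library of the 6 genotypes (points, libraries; bars, mean; error bars, SD; n = 6). In the upper left plot 1 [KO + XBP1(S)] library lies at 30.9 CPM, and in the lower left plot all [KO + XBP1(S)] libraries lie at or below 0.44 CPM.

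The loss of AXER, and XBP1(S) in place of ATF6(N), were each also measured in libraries that the comparison of [KO + XBP1(S)] with WT did not use. Between [KO + ATF6(N)] and [WT + ATF6(N)] hearts, which differ by AXER alone, 84 transcripts were higher (0.465%) and 25 were lower (0.138%). Of the 147 raised transcripts, 68 were higher there, and of the 62 fallen ones, 9 were lower. The 9 became 4 without [KO + XBP1(S)] replicate 5 and 2 without replicates 5 and 2, where 44 and 27 transcripts were called lower than in WT hearts. By group, these were 57 of the 66 rises that remained and 11 of the 81 that appeared, and 8 of the 12 falls that remained and 1 of the 50 that appeared. The median log2 fold change was 1.01, 0.53, -0.83 and -0.25 in these 4 groups, and -0.02 over all transcripts tested. At an unadjusted p under 0.05, 18 of the 62 fallen transcripts were lower there (3.13% of all transcripts). By direction alone, 50 of the 62 were lower and 12 were higher.

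[WT + XBP1(S)] and [WT + ATF6(N)] hearts differ by both the XBP1(S) and the ATF6(N) allele, so their difference is not that of XBP1(S) alone. Between [WT + XBP1(S)] and [WT + ATF6(N)] hearts, 114 transcripts were higher (0.631%) and 2 were lower (0.0111%). Of the 147 raised transcripts, 87 were higher there, 41 of the 66 that remained and 46 of the 81 that appeared, with median log2 fold changes of 0.82 and 0.98. None of the 62 fallen transcripts was lower there by edgeR, DESeq2 or limma-voom, with 7 at an unadjusted p under 0.05 (3.53% of all transcripts), and their median log2 fold change was -0.11, against -0.01 over all transcripts. By group, these 7 were 4 of the 12 falls that remained and 3 of the 50 that appeared. By direction alone, 10 of the 12 (median -0.175) and 31 of the 50 (median -0.106) were lower. Against WT hearts, whose libraries chose the 62, 54 were lower in [WT + XBP1(S)] hearts, with a median log2 fold change of -0.33. In [WT + ATF6(N)] hearts 53 were lower, with a median of -0.2. At an unadjusted p under 0.05 these were 18 and 7, against 497 and 287 of all 18076 transcripts. A fall common to both alleles would not show between these genotypes. Of the 147 raised transcripts, 68 were thus found again in other libraries with the loss of AXER and 87 with XBP1(S) in place of ATF6(N). Of the 62 fallen ones, 9 were called again with the loss of AXER (0.138% of all transcripts) and none with XBP1(S) in place of ATF6(N).

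**Figure D4:**
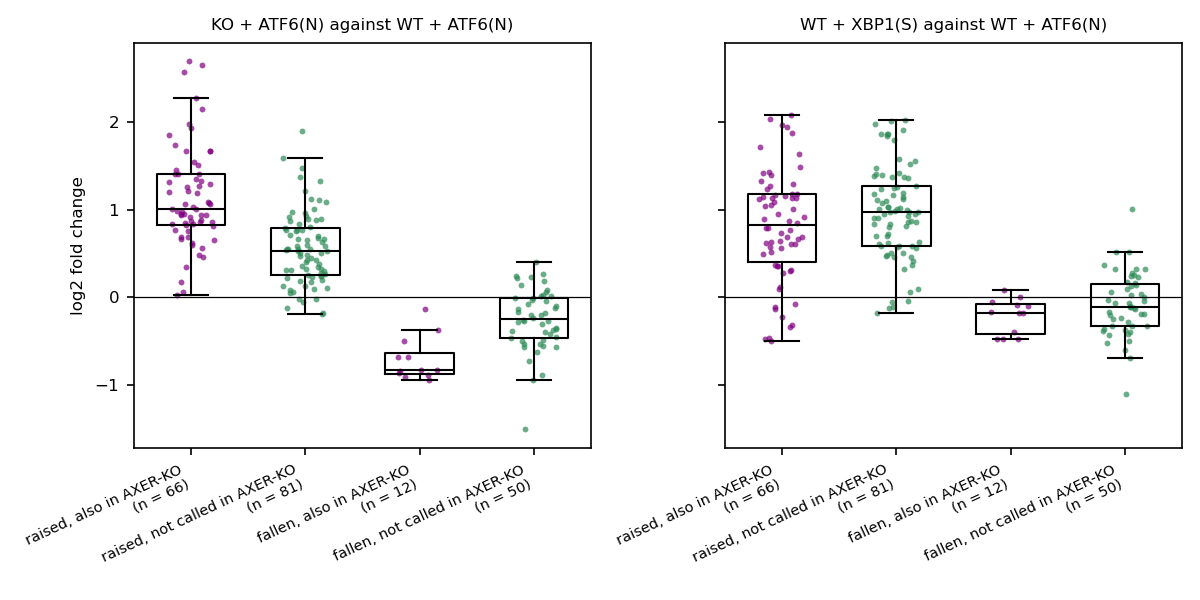
Log2 fold changes of the called transcripts in 2 comparisons that use no library of [KO + XBP1(S)] or WT hearts, the loss of AXER (left) and XBP1(S) in place of ATF6(N) (right) (points, transcripts; boxes, quartiles and median; whiskers, values within 1.5 box lengths). On the left, the medians of the rises and falls that remained are 1.01 and -0.83. On the right, both raised groups lie around 0.82 and 0.98, and the medians of the falls that remained and that appeared are -0.175 and -0.106.

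On the log scale, the effect of XBP1(S) in null hearts differed from that in WT hearts for 4 transcripts (0.0111% in each direction), all of which had remained from AXER-KO hearts. At an unadjusted p under 0.05, 557 transcripts (3.08%) had a larger and 819 (4.53%) a smaller or more negative effect in null hearts. The first of the 4 was at 308 to 462 CPM (median 389) in [KO + XBP1(S)], 220 to 381 CPM in AXER-KO, 218 to 359 CPM in [WT + XBP1(S)] and 64.4 to 126 CPM (median 80.2) in WT libraries. Its log2 rise with XBP1(S) was 0.38 in null and 1.59 in WT hearts, and these differed by -1.22 with a standard error of 0.23 (edgeR, adjusted p = 0.0294). The second was at 64.7 to 83.2 CPM (median 72.0) in [KO + XBP1(S)], 37.2 to 47.7 CPM in AXER-KO, 59.6 to 93.6 CPM in [WT + XBP1(S)] and 16.8 to 26.6 CPM (median 22.3) in WT libraries, with a log2 difference of -1.01 (standard error 0.19, adjusted p = 0.0294). The libraries of both genotypes with XBP1(S) overlapped for this transcript.

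The other pair consisted of fallen transcripts with nearly the same levels. Their log2 CPM correlated at r = 0.986 over all 36 libraries, so they may not stand for separate genes. They were at 84.3 to 155 and 91.6 to 146 CPM in [KO + XBP1(S)], 54.5 to 88.2 and 64.2 to 81.5 CPM in AXER-KO, and 145 to 219 and 155 to 222 CPM in WT libraries. The [KO + XBP1(S)] libraries of the second of them lay between those of AXER-KO and WT without overlap, and those of the first overlapped both at the edges. XBP1(S) went with a log2 rise of 0.76 and 0.79 in null hearts (adjusted p = 0.00677 and 0.00126 from edgeR) and with log2 changes of -0.29 and -0.34 in WT hearts (adjusted p = 0.691 and 0.437). Both remained below WT, at log2 fold changes of -0.65 and -0.69. Over the 147 raised transcripts the sum of both single log2 fold changes had a median of 1.79, against 1.21 for the combined genotype, and over the 62 fallen ones -0.87 against -0.97. These sums use the same libraries that chose the transcripts and carry the noise of the WT libraries in both terms.

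[KO + XBP1(S)] hearts were also set against the genotypes that share one of their alleles. Against [WT + XBP1(S)] hearts 21 transcripts were higher (0.116%) and 12 were lower (0.0664%), among them 16 of the 147 raised transcripts and 7 of the 62 fallen ones. Against [KO + ATF6(N)] hearts 22 were higher (0.122%) and 8 were lower (0.0443%), among them 20 raised and 5 fallen transcripts of those 209. These comparisons share the [KO + XBP1(S)] libraries with the one against WT.

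Estimates that were not whole numbers, as arise when reads match several transcripts, were found in some library for 67.3% of raised and 48.4% of fallen transcripts, against 38.1% of all tested. In addition, 45 of the 209 called transcripts formed 52 pairs whose log2 CPM correlated at r above 0.95 over all 36 libraries. Counts of transcripts are therefore not counts of genes. With whole estimates alone, 34 transcripts were raised and 24 were fallen.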

How the data were processed

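RNA of medaka hearts at 5 dpf was prepared by Lasy-Seq. Per the submitters' processing notes, reads were trimmed with fastp 0.21.0 and mapped with BWA 0.7.17-r1188, and the authors deposited the estimated counts of Salmon for 37495 transcripts in each of 36 libraries. The notes name a mouse assembly although the identifiers are those of medaka, and no coordinates were used. Among the estimated counts as deposited, 1.88% differed from a whole number by over 1e-06, and all were rounded. The table of gene names used here held 0 of the identifiers, so gene lists and cell markers were not analysed.

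The filter filterByExpr kept 18076 transcripts. After TMM scaling, edgeR 4.0.16 (R 4.3.3) fitted its robust quasi-likelihood model to the 36 libraries, giving every genotype its own mean. Calls required an adjusted p under 0.05 over all transcripts tested and a fold above 1.5. CPM use TMM-normalized library sizes, and mean log2 CPM a prior count of 2. No 2 libraries of [KO + XBP1(S)] or of WT agreed within sampling noise (lowest chi-square per degree of freedom 6.23 and 6.91). Members, lists and tests were chosen with earlier results of these data known. Named are the 2 largest rises and falls with at least 5 CPM and no overlap of libraries, and the leading 3 of each group under these limits are described without identifier (for changes no longer called, by AXER-KO against WT). The 4 transcripts with unequal XBP1(S) effects and 1 without WT reads were chosen after their values were seen.

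On simulated counts (18076 transcripts, 6 sets, 200 changed at 5 CPM or more) the test of [KO + XBP1(S)] against WT recovered 82.6% of the changes made 3-fold, 44.8% at 2-fold and 7.21% at 1.5-fold, and 3.07% of its calls were false. The simulation gave all genotypes the same spread per transcript and held no library that stood apart. The [KO + XBP1(S)] libraries were less alike than those of WT, so these shares may not hold for the data. Alternatives were RLE normalization, DESeq2 1.42.0, limma-voom (limma 3.58.1), other filters, fits of the compared genotypes alone, a test against 1.5-fold, thinned libraries, removal of the 10 most abundant transcripts or of estimates that were not whole, and leaving out each library. Removal of [KO + XBP1(S)] replicates 5 and 2 together was added after seeing the data.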

Additional observations from a re-analysis of the deposited data

Results flagged for a closer look

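Of 64 groups of 6 libraries examined, 4 held a library far from the others, and chance gives about 1 in 20. All 4 were [KO + XBP1(S)] groups. ENSORLT00000033549.1 was at 30.9 CPM in replicate 5, with a gap of 0.667 of the group's range to the next library. The third of the rises that appeared was at 147 CPM in replicate 5, with a gap of 0.797 of the range. The mean log2 CPM of the 38 rises called in neither single genotype was 4.83 in replicate 5, with a gap of 0.627 of the range. Both transcripts above are among these 38, so the flags of replicate 5 are not independent of each other. The depth of replicate 1 was 4728592 estimated reads, with a gap of 0.658 of the range.

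The effect of XBP1(S) differed between null and WT hearts for 4 transcripts by edgeR's test of the difference. The log2 differences were -1.22 and -1.01 for a pair of raised transcripts and 1.05 and 1.13 for a pair of fallen ones, whose levels were nearly the same in every genotype.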

How the results depend on the processing

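Counts of transcripts called higher, called lower, that remained and that appeared stayed within 1.5 times under RLE normalization, without a filter, with a filter of 5 CPM, in libraries thinned to 1850806 reads and without the 10 most abundant transcripts. The test against 1.5-fold gave 64 higher and 6 lower, with 14 that remained, 56 that appeared, 0 unequal XBP1(S) effects, 26 for AXER loss and 36 for XBP1(S) in other libraries, 0 against [KO + ATF6(N)] and 10 against [WT + XBP1(S)]. Whole estimates alone, with 11068 transcripts tested, gave 34 higher, 24 lower, 9 that remained, 49 that appeared, 0 unequal effects, 17 for AXER loss, 20 for XBP1(S), 2 against [KO + ATF6(N)] and 8 against [WT + XBP1(S)]. DESeq2 gave 202 that appeared, 36 unequal effects, 74 against [KO + ATF6(N)] and 128 against [WT + XBP1(S)]. limma-voom gave 29 lower, 79 that appeared, 9 unequal effects and 21 against [WT + XBP1(S)], and did not call ENSORLT00000033549.1, ENSORLT00000010142.2 or ENSORLT00000043272.1 (adjusted p = 0.0554, 0.133 and 0.167). Fits of the compared genotypes alone gave 23 lower, 51 that remained, 1 unequal effect, 19 against [KO + ATF6(N)] and 17 against [WT + XBP1(S)]. Unequal effects numbered 2 without a filter and 9 with that of 5 CPM, and calls against [KO + ATF6(N)] 13 without a filter. Without replicates 5 and 2, an alternative chosen after seeing the data, 27 were lower, 80 appeared, 2 effects were unequal, and 13 and 18 were called against [KO + ATF6(N)] and [WT + XBP1(S)]. Over these alternatives, changes no longer called numbered 7 to 74 (38 as reported), appearing changes called against AXER-KO 1 to 33 (11), and fallen ones found again with AXER loss 0 to 10 (9). Where no value shows it, the cause was not tested.

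Leaving out each library in turn gave 127 to 150 higher, 44 to 70 lower, 60 to 80 that remained and 99 to 146 that appeared. Unequal effects ranged from 1 (without WT replicate 4) to 10 (without WT replicate 5), and calls against [KO + ATF6(N)] from 13 (without [KO + XBP1(S)] replicate 5) to 29. AXER loss gave 90 to 109, XBP1(S) 90 to 126 and [WT + XBP1(S)] 24 to 45. No paired analysis was possible because the numbers of the libraries are column positions and pair nothing. The test found few 1.5-fold changes in simulation, in part because a call also required an estimated change above 1.5-fold. A change that was not called may therefore still exist.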
